A study of Mus musculus with 6 samples.

Results

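ETS transcription factors were followed in L-GMP cells, leukaemia cells from acute myeloid leukaemia (AML) in mice that resemble granulocyte-monocyte progenitors. The 10 genes are Ets1, Ets2, Erg, Fli1, Spi1, Elf1, Elf4, Etv6, Elk3 and Gabpa, taken by symbol from a table of 30037 named genes, and all 10 were found there. Poly(A) RNA had been sequenced from L-GMP cells sorted out of the bone marrow of AML mice aged 8 to 10 weeks, in 6 libraries. In 3 of them the leukaemia was wild type and in 3 it was Prmt6-/-, without the arginine methyltransferase Prmt6; how the allele was made is not given in the labels. The labels do not name the oncogene that drove the leukaemia, and nothing in them says that libraries of a genotype came from separate animals or leukaemias. The p-values therefore measure the spread between these libraries, which may be technical.

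ETS factors share a DNA-binding domain of the winged helix-turn-helix type that reads a GGAA core. They differ in the bases they prefer beside that core, in their partners, and in whether they activate or repress. Spi1 encodes PU.1, which drives granulocyte and monocyte genes and whose dose is limiting in myeloid cells. Erg and Fli1 maintain stem cells and megakaryocytes, Ets1 is best known from lymphocytes, and Etv6 is a repressor needed by adult bone marrow stem cells. Elk3 is a ternary complex factor that works with SRF, and Gabpa is the DNA-binding subunit of GABP, which serves housekeeping and mitochondrial genes.

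All values are the deposited log2 values, which the authors normalized between libraries. Differences are knockout minus wild type, and a gene is said to have risen or fallen where the limma test, with Benjamini-Hochberg adjustment over 15454 tested genes, gave an adjusted p under 0.05. By that rule 33.0% of tested genes changed, 15.0% being higher and 18.0% lower in the knockout. Of the 10 ETS genes, 4 rose (Ets1, Erg, Fli1 and Elk3), 3 fell (Spi1, Elf1 and Etv6) and 3 did not pass (Ets2, Elf4 and Gabpa). Among the 6402 genes at or above the level of the lowest of them 46.2% were called, 17.8% being higher and 28.3% lower. The share of 7 in 10 is thus to be read against a high background in genes of this abundance. The authors' deposited adjusted p also passed for 7 of the 10, as for 31.0% of tested genes. The median difference of the 10 was -0.06, and that of all tested genes was 0.01. Groups did not overlap for 7 of the 10, as for 47.4% of all tested genes.

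**Figure D1:**
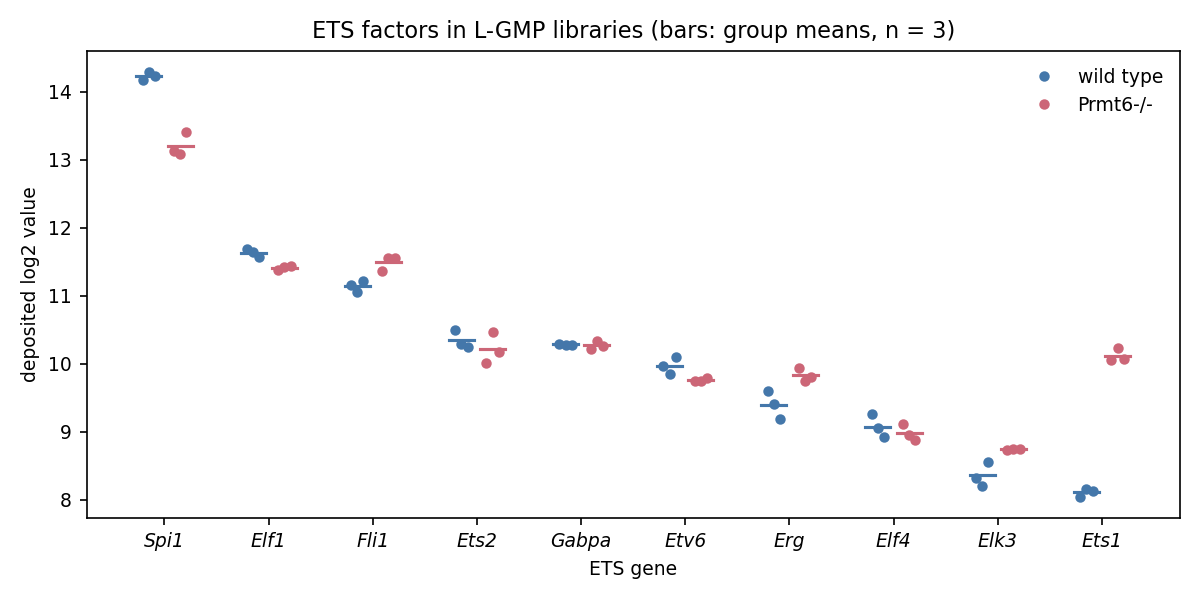
Deposited log2 value (y axis) of each ETS gene (x axis, ordered by wild-type mean) in 3 wild-type (blue) and 3 Prmt6-/- libraries (red); short bars are group means. Ets1 lies near 8.1 in every wild-type library and above 10 in every knockout library, and Spi1 lies above 14 in the wild type and between 13.08 and 13.41 in the knockout.

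The cells matched their label in part of its markers. Of 8 markers of granulocyte-monocyte progenitors all were tested, and the serine protease Elane was the highest of them, at 16.6 in wild-type cells against 18.0 in knockout cells. Kit stood at 10.1 and 9.85, Cd34 at 10.4 and 10.5 and Fcgr3 at 13.3 in both. In that list 2 rose, Elane by 1.45 and Ctsg by 0.51, where 15.0% of all tested genes were higher. Fcgr2b alone fell, by 0.88, from 12.4 to 11.5, where 18.0% of all tested genes were lower. Prmt6 itself fell from 7.61 ± 0.20 (SD, n = 3) to 5.45 ± 0.03 (limma adjusted p = 3.57e-06), and its log2 fold change in the authors' deposited table is -7.66. Library medians over tested genes lay between 7.72 and 7.75. No counts were given, so the depth of the libraries is unknown.

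Levels of different genes can be compared only per length. The deposited value minus the log2 of the exon length in kilobases, from GENCODE gene models on GRCm38, was used for this. In the wild type Spi1 stood highest on that per-length scale, at 12.8, followed by Fli1 at 9.34 and Elf1 at 8.88. Ets2 at 7.82, Gabpa at 7.78 and Erg at 7.61 formed a close middle group with Etv6 at 7.39, in which each gene's libraries overlapped those of the next. Elf4 at 6.46 and Elk3 at 6.18, which also overlapped, and Ets1 at 5.03 were the lowest. In the knockout Spi1 was still the highest, at 11.8, and Ets1 had moved from the last place to 7.03, above Elk3 at 6.56 and Elf4 at 6.36. With the longest transcript as the length, Elf1 stood above Fli1 in the wild type, at 9.55 and 9.41.

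The make-up of the summed per-length level of the 10 genes differed between the genotypes, without overlap for Spi1. Spi1 made up 75.6%, 78.4% and 77.1% of it in the wild-type libraries and 59.3%, 56.8% and 62.7% in the knockout libraries. Fli1 took 7.01% ± 0.53 (SD, n = 3) in wild-type cells against 14.0% ± 0.98 in knockout cells. Erg went from 2.12% ± 0.33 to 4.49% ± 0.54, and Ets1 from 0.352% ± 0.006 to 2.24% ± 0.26. These shares add to a fixed total, so a smaller Spi1 share raises the others. They are a description of RNA, with no test.

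**Figure D2:**
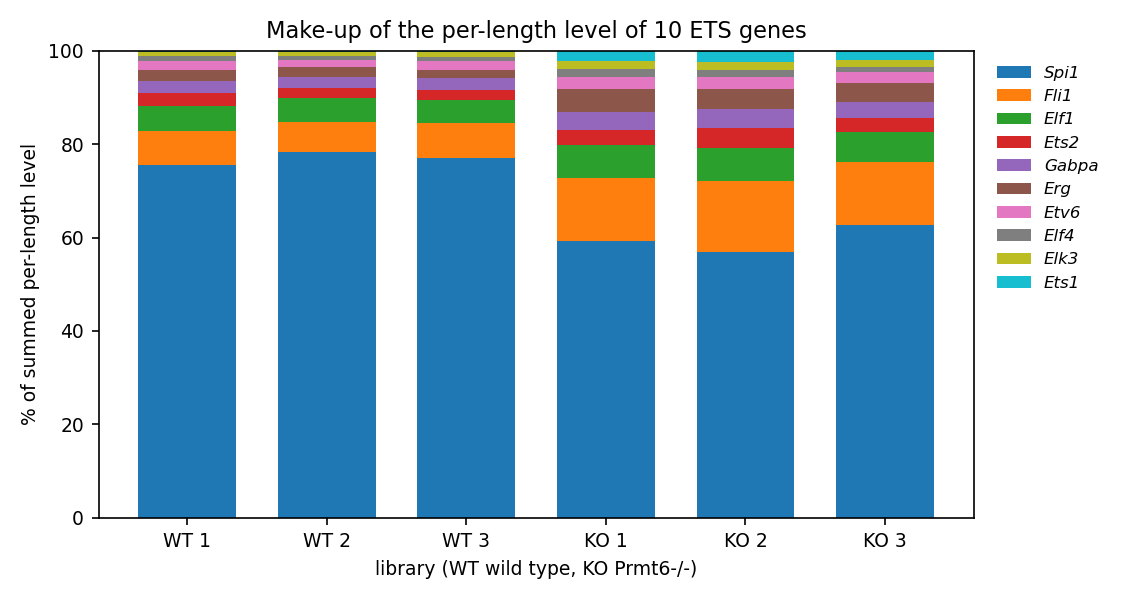
Percent of the summed per-length level (y axis) held by each of the 10 ETS genes in every library (x axis). Spi1 fills 75.6% to 78.4% of the wild-type bars and 56.8% to 62.7% of the knockout bars, and the Fli1 and Erg segments are wider in the knockout.

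Ets1 had the largest difference of the 10. It encodes the founding factor of the family, an activator held back by its own flanking helices and released by partners such as RUNX1. Its values were 8.05, 8.15 and 8.13 in wild-type cells against 10.06, 10.23 and 10.07 in knockout cells. The spread within each genotype was small and the groups were far apart. Ets1 rose by 2.01 (SE 0.0682, limma adjusted p = 6.55e-07), 4.02-fold on the deposited scale, and 1.95% of all tested genes both passed and differed by at least 2-fold. In the authors' deposited table its log2 fold change is 2.59 (adjusted p = 1.77e-104).

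Ets1 lies on chromosome 9 (32636221 to 32757820, GRCm38, plus strand, protein-coding), 93.36 kb from Fli1, which is read from the opposite strand (32422204 to 32542861). Fli1 also rose, but by less. Its values were 11.15, 11.05 and 11.22 in wild-type cells against 11.36, 11.55 and 11.56 in knockout cells, so the groups were close without overlapping. Fli1 rose by 0.35 (SE 0.0700, limma adjusted p = 0.00481), 1.28-fold. Besides Fli1, 2 genes within 1 Mb of Ets1 were tested, and neither passed: the potassium channel gene Kcnj5 differed by -0.05 and Arhgap32 by 0.04. Both were low, near 3 to 4 on the deposited scale, which understates differences of low genes.

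Since Ets1 is abundant in lymphocytes, lymphocyte markers were read beside it. Of 8 T cell markers 7 were tested, 2 rose and 1 fell. The counts of lymphocyte markers are to be read against 15.0% of all tested genes higher and 18.0% lower. Bcl11b, a T-lineage transcription factor, rose by 1.13, from 7.02, 7.01 and 7.05 to 8.33, 8.14 and 8.02. Cd3d rose by 0.44, the kinase Lck fell by 0.28, and Cd3e was below 0 in every library. Cd3g, Cd2, Cd5 and Tcf7 did not pass. The summed T cell markers ran from 7.93 to 7.96 in the wild type and from 8.55 to 8.78 in the knockout. Bcl11b was the highest of them, with means of 7.03 and 8.16. Of 5 tested B cell markers Cd79b alone passed, falling by 1.15. The summed level of the list, mostly Cd79b, ran from 9.61 to 9.74 in the wild type and from 8.48 to 8.83 in the knockout. Of 4 tested NK cell markers Klrk1 alone passed, rising by 0.22, and Ncr1 was below 0 throughout, with sums of 4.95 to 5.01 and 5.11 to 5.13. The part of lymphoid cells in the Ets1 result was not tested. In sorted bulk samples such as these, fewer cells of a type and less RNA per cell cannot be told apart.

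Erg, a close relative of Fli1 and a regulator of stem cell self-renewal, rose as well. It stood at 9.60, 9.40 and 9.19 in wild-type cells against 9.94, 9.74 and 9.81 in knockout cells. The lowest knockout library was only slightly above the highest wild-type library. Its gene lies on the minus strand of chromosome 16, at 95359169 to 95586593. Erg rose by 0.43 (SE 0.102, limma adjusted p = 0.0108), 1.35-fold. Within a library, Fli1 exceeded Erg by 1.74 ± 0.25 in wild-type cells against 1.66 ± 0.21 in knockout cells (SD, n = 3, not per length). This gap did not differ beyond the spread between libraries (exact permutation p = 0.7, two-sided, 0.7 after adjustment over 3 paralog pairs), where 3 against 3 libraries cannot give less than 0.1. Its difference of -0.08 turned to 0.059 without wild-type library 3 and to 0.037 without knockout library 1.

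Ets2 is the closest relative of Ets1 and sits 115.5 kb from Erg on chromosome 16 (95702075 to 95721051, plus strand), so that the Ets1-Fli1 arrangement is repeated there. Its values were 10.49, 10.30 and 10.25 in wild-type cells against 10.01, 10.46 and 10.17 in knockout cells, and the groups overlapped. The difference of -0.13 (95% interval -0.389 to 0.124, limma adjusted p = 0.413) did not pass. Ets1 was below Ets2 by 2.24 ± 0.18 in the wild type and stood at -0.10 ± 0.14 from it in the knockout (SD, n = 3, not per length). The groups of this within-library difference did not overlap, and its change of 2.14 had an exact permutation p of 0.1, the smallest possible, or 0.3 after adjustment over the 3 pairs.

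Some genes around Erg and Ets2 were higher as well. Of 12 tested genes within 1 Mb of Erg 4 rose and none fell, where 15.0% of all tested genes were higher and 18.0% lower. Among those that rose were the nucleosome-binding protein gene Hmgn1, by 0.67, and its neighbour Wrb, by 0.66, a pair chosen after their values were seen. Within 2.5 Mb on each side of Erg, counting only genes as abundant as the 10 ETS genes, the median difference of the 10 others was 0.29. The median of such genes was -0.04 over all chromosomes and -0.02 on chromosome 16. The part of the surroundings in the rise of Erg was not tested.

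Elk3, a ternary complex factor that represses SRF targets until it is phosphorylated, was the fourth gene to rise. It stood at 8.33, 8.20 and 8.56 in wild-type cells against 8.74, 8.75 and 8.75 in knockout cells, where the libraries were nearly equal. Elk3 rose by 0.38 (SE 0.0888, limma adjusted p = 0.0101). Its gene on chromosome 10 (93247414 to 93311135, minus strand) overlaps Cdk17 on the other strand, and Cdk17 differed by 0.18 without passing. The sources used here do not say whether counting used the strand, so reads of overlapping genes may not have been told apart. The same holds for Elf1, which overlaps Wbp4, a gene that fell by 0.25, and for Gabpa, which overlaps Atp5j, a gene that differed by -0.06 without passing.

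Endothelial cells also express Erg, Fli1 and Elk3 strongly, and megakaryocytes express Erg and Fli1. Of 7 endothelial markers 4 were tested, and Pecam1 alone passed, falling by 0.41 from a high level, 11.28 in wild-type cells against 10.88 in knockout cells, while Cdh5, Tek and Emcn were below 0 in every library. The endothelial sum, mostly Pecam1, ran from 11.2 to 11.5 in wild-type libraries and from 10.7 to 11.0 in knockout libraries. Pecam1 no longer passed when wild-type library 3 (adjusted p = 0.0513) or knockout library 1 (0.0551) was left out. The smallest limma adjusted p of 5 tested megakaryocyte markers was 0.246, their sum lay between 6.98 and 7.04 in all 6 libraries, and Pf4 and Ppbp were below 1 in every library. The highest of them, Itgb3, stood at 5.77 in the wild type, followed by Itga2b at 5.43 and Vwf at 4.32. As background for both marker lists, 15.0% of all tested genes were higher and 18.0% lower. The part of endothelial cells and megakaryocytes in the rises of Erg, Fli1 and Elk3 was not tested.

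**Figure D3:**
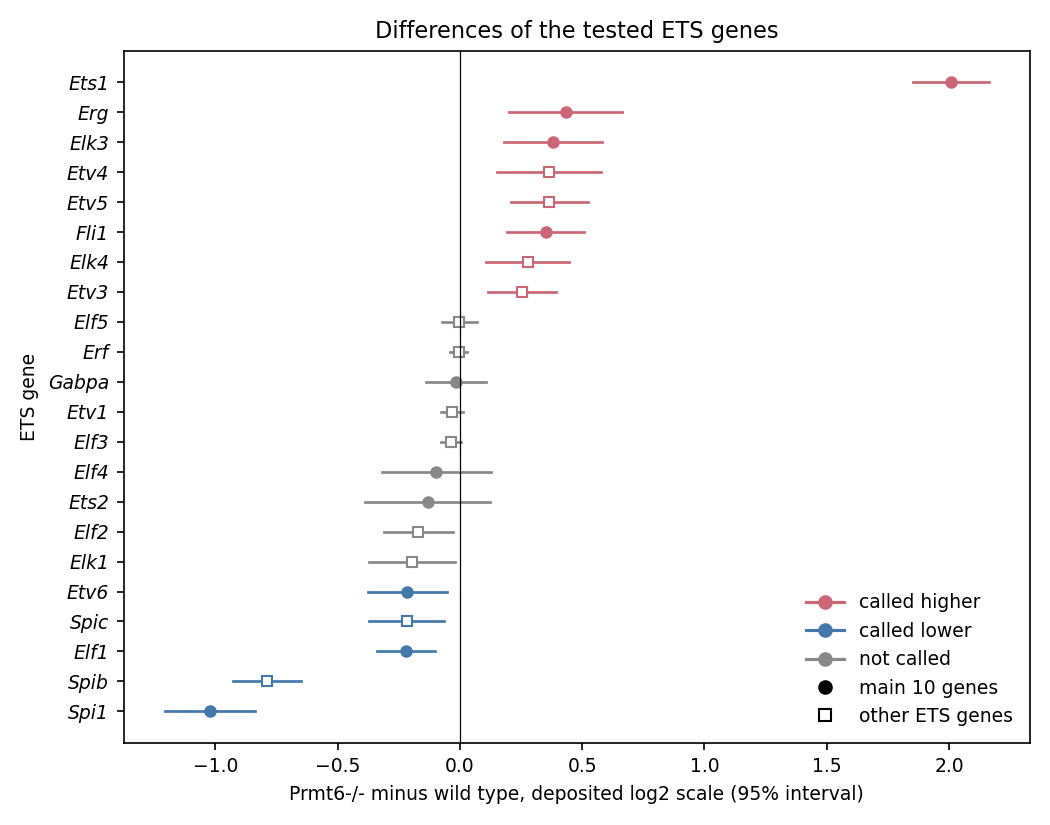
Knockout minus wild type (x axis, deposited log2 scale) with limma's 95% interval for the 22 tested ETS genes (y axis). Filled circles are the 10 main genes, open squares the other ETS genes, and colour gives the call; Ets1 stands alone at 2.01, Spi1 and Spib lie lowest at -1.02 and -0.79, and the other called genes lie between -0.22 and 0.43.

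Spi1 showed the largest fall. Its values were 14.17, 14.29 and 14.23 in wild-type cells against 13.12, 13.08 and 13.41 in knockout cells, with knockout library 3 higher than the other knockout libraries. Spi1 fell by 1.02 (SE 0.0816, limma adjusted p = 4.31e-05), so that the wild-type level was 2.03-fold the knockout level on the deposited scale. In the authors' deposited table its log2 fold change is -1.10 (adjusted p = 9.12e-31). The call held in all 13 alternatives, with differences from -1.12 to -0.86.

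The fall of Spi1 was shared by its neighbours over a long stretch of chromosome 2. Spi1 lies at 91082390 to 91115756 (GRCm38, plus strand, protein-coding). Of 34 tested genes within 1 Mb 26 fell and none rose, where 18.0% of all tested genes were lower and 15.0% higher. The 3 called genes nearest to it were the zinc transporter gene Slc39a13, which fell by 0.75, the proteasome subunit gene Psmc3, by 0.85, and Madd, by 0.74. The lysosomal phosphatase gene Acp2, 87.13 kb away, fell by 1.85. These neighbours were read after their values were seen.

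The stretch was then traced along the chromosome, counting genes at least as abundant as the lowest of the 10 ETS genes and following the running median of 9 genes until it rose above -0.4. This rule was set after the values had been seen, and its result is a description. The stretch ran from Gpd2 to Ndufaf1, from 57237635 to 119662827, a length of 62.4 Mb. Spi1 lay 33.8 Mb from its start and 28.5 Mb from its end. Of 109 other abundant genes in it 103 fell and 2 rose, that is 94.5% lower, against 28.4% of abundant genes placed on any chromosome. Their median difference was -0.76, with quartiles of -0.93 and -0.62. The median of the authors' deposited log2 fold changes for the same genes was -0.93. Outside the stretch 24.6% of the 399 abundant genes of chromosome 2 fell, and their median was -0.01. By the same rule no other run on any chromosome held more than 5 genes.

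The 3 knockout libraries differed in how far the stretch was lowered. The median of the 109 genes lay at -0.85, -0.82 and -0.63 from the wild-type mean in knockout libraries 1, 2 and 3. Each wild-type library lay between -0.01 and 0.04 from the mean of the other wild-type libraries. Spi1 lay at -1.10, -1.14 and -0.82 from its wild-type mean in the same knockout libraries, so that library 3 was the mildest in both, while libraries 1 and 2 stood in opposite order. Spi1 fell by 0.26 more than the median of the stretch, and 23 of the 109 genes fell by more than Spi1. These libraries measure RNA, and the number of DNA copies of the stretch was not measured. Whether the Spi1 and Lmo2 values reflect the loss of Prmt6 or a state of the whole stretch in these leukaemias, a lost DNA copy included, cannot be told apart here. The genotype and the state of the stretch cannot be told apart, since every knockout library has it and no wild-type library does.

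**Figure D4:**
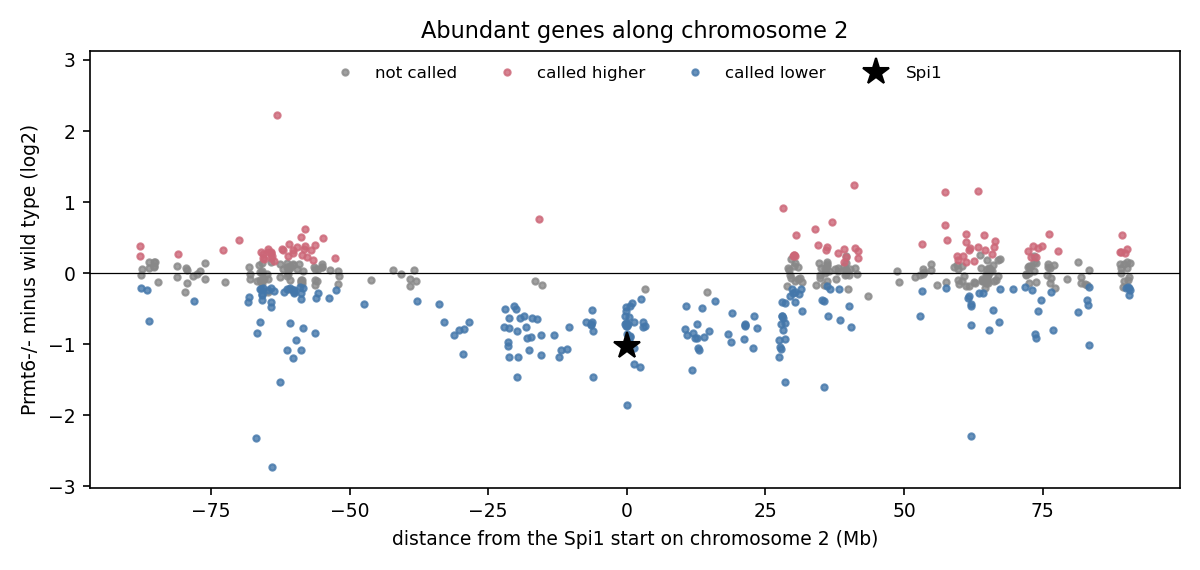
Knockout minus wild type (y axis, deposited log2 scale) of abundant genes against their distance from the start of Spi1 on chromosome 2 (x axis, Mb); colour gives the call and the star is Spi1. Between 33.8 Mb before and 28.5 Mb after Spi1 103 of the 109 other genes fell, with a median of -0.76, and outside it the median is -0.01.

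No other ETS gene of the 10 lies in that stretch. Of the other listed genes that were tested it holds Elf5, an epithelial ETS factor that stood at 3.18 in both genotypes, and Lmo2, a bridging partner of stem cell factors. The epithelial ETS gene Ehf, too low to be tested, lies there too. None of the PU.1 target genes does.

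Of Elf1 and Elf4, related activators of blood and endothelial genes, Elf1 alone passed. Elf1, on chromosome 14 (79481194 to 79582494, plus strand), stood at 11.69, 11.64 and 11.57 in wild-type cells against 11.37, 11.43 and 11.44 in knockout cells. It fell by 0.22 (SE 0.0522, limma adjusted p = 0.0112), a small step that exceeded the narrow spread. Quantile normalization (-0.12, limma adjusted p = 0.114) ended the call of Elf1, as did centring by intensity (-0.13, 0.0990). Elf4, on chromosome X (48411046 to 48463132, minus strand), stood at 9.26, 9.05 and 8.92 and at 9.12, 8.95 and 8.88. Its groups overlapped and its difference of -0.10 (95% interval -0.317 to 0.126, limma adjusted p = 0.496) did not pass. The median difference of 180 abundant genes of the X chromosome was -0.12, against -0.04 over abundant genes of all chromosomes. The gap between Elf1 and Elf4 was 2.56 ± 0.11 in wild-type cells against 2.44 ± 0.16 in knockout cells (SD, n = 3, not per length; exact permutation p = 0.4, or 0.6 adjusted over the 3 pairs).

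Etv6 was the weakest of the calls. Its gene spans 134035700 to 134270158 of chromosome 6 on the plus strand. It stood at 9.97, 9.85 and 10.10 in wild-type cells against 9.74, 9.75 and 9.79 in knockout cells, without overlap. Etv6 fell by 0.21 (SE 0.0707, limma adjusted p = 0.0449), and the call was lost in 8 of 13 alternatives, with adjusted p-values up to 0.171. Those were quantile normalization (-0.14), intensity-dependent centring (-0.15), no filter on low values, and leaving out wild-type library 1 or 3 or any of the knockout libraries. Gabpa, on chromosome 16 (84834925 to 84863779, plus strand), had the smallest difference of the 10, at 10.30, 10.28 and 10.28 in wild-type cells against 10.22, 10.33 and 10.26 in knockout cells. Its difference of -0.02 (95% interval -0.138 to 0.106, limma adjusted p = 0.848) did not pass, and its sign was positive after quantile normalization and centring.

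Of 17 further ETS genes 16 were in the table and 12 passed the filter on low values. Among these 4 rose and 2 fell, where 15.0% of all tested genes were higher and 18.0% lower. Spib, a sister of Spi1 known from B cells and plasmacytoid dendritic cells, fell from 6.35, 6.26 and 6.40 to 5.55, 5.57 and 5.53. Its fall of 0.79 (SE 0.0613, limma adjusted p = 3.95e-05) came from a level far below that of Spi1, and on this scale the change of a low gene is understated: the authors' deposited table lists a log2 fold change of -2.68. Spic, the third PU.1-type gene, known from red pulp macrophages, fell by 0.22 (limma adjusted p = 0.0361). The Spic call ended in 6 alternatives, among them leaving out wild-type library 3 (-0.14, adjusted p = 0.0611) or any knockout library. In the authors' deposited table the log2 fold change of Spic is -1.78.

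The PEA3 genes Etv4 and Etv5, which respond to FGF and RAS-ERK signalling in many tissues, rose by 0.37 and 0.36, to 5.34 and 7.35. In the authors' deposited table their log2 fold changes are 1.88 and 0.73. Their relative Etv1 stayed low, at 2.47 and 2.43, and did not pass. The repressor gene Etv3 rose by 0.26 and the ternary complex factor gene Elk4 by 0.28, while Elk1, the third gene of that class, differed by -0.20 without passing (adjusted p = 0.0823; 0.0445 without wild-type library 3). Leaving out wild-type library 2 ended the Etv4 call (adjusted p = 0.0537), and leaving out knockout library 2 ended that of Etv3 (0.0523). Elk4 no longer passed when wild-type library 1 (0.0668), knockout library 1 (0.0699) or knockout library 2 (0.0805) was left out. Elf2 differed by -0.17 (adjusted p = 0.0661), and passed without wild-type library 3 (0.0348). Erf at 2.06, Elf3 at 1.22 and Elf5 were low and did not pass, and Fev, Ehf, Etv2 and Spdef were below 1 in every library. In all, 8 of the 22 tested ETS genes rose and 5 fell, against the same background of 33.0% called, or 46.2% among genes as abundant as the 10.

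PU.1 target genes had the lowest median of the 6 lists of partners, cofactors and targets. Of 14 tested members 3 rose and 8 fell, where 15.0% of all tested genes were higher and 18.0% lower, and 17.8% and 28.3% of genes as abundant as the 10 ETS genes. The median difference was -0.68, against 0.01 over all tested genes. The summed level went the other way, from 17.4 to 17.8 in wild-type libraries and from 18.2 to 18.4 in knockout libraries, Elane being the highest member. The M-CSF receptor gene Csf1r, the standard PU.1 target of monocytes, stood at 10.58, 10.67 and 10.41 in wild-type cells against 8.36, 8.83 and 8.99 in knockout cells, a fall of 1.83 (SE 0.147, limma adjusted p = 4.40e-05). The NADPH oxidase genes Ncf1 and Cybb fell by 1.32 and 1.26, the integrin Itgam by 1.08, lysozyme Lyz2 by 0.85 and the G-CSF receptor Csf3r by 0.79. Il1b fell by 0.57 and Csf2ra by 0.31. The Lyz2 call ended without knockout library 2 (adjusted p = 0.0527).

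The members that rose were Elane, by 1.45, the endotoxin receptor Tlr4, by 0.67, and its co-receptor Cd14, by 0.44. Elane stood at 16.42, 16.54 and 16.72 in wild-type cells against 18.01, 18.04 and 17.98 in knockout cells. Mpo, another granule gene, spread from 13.34 to 15.72 among the knockout libraries, and its difference of -1.11 did not pass (adjusted p = 0.139); without knockout library 3 it was -1.73 with an adjusted p of 0.0115. The list thus held members of both directions, and several of its genes are also markers of monocytes. Of 8 markers of monocytes and macrophages 2 rose and 3 fell, where 15.0% of all tested genes were higher and 18.0% lower. Besides Csf1r and Cd14, Ccr2 rose by 1.07, Cd68 fell by 0.94 and Emr1 fell by 0.33. Ly6c2, the highest of the list, stood at 14.5 in both genotypes and did not pass. The summed level of the list ran from 15.0 to 15.1 in the wild type and was 15.0 in every knockout library. Of 8 neutrophil markers 2 rose and 2 fell, to be read against the same shares, with sums of 11.4 to 11.5 and 11.0 to 11.6. Cxcr2 rose by 1.18 and Camp by 0.97, while Lcn2 fell by 1.09 and Mmp8 by 0.53. Camp spread from 8.37 to 9.61 among the knockout libraries. The part of these cells in the result was not tested.

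**Figure D5:**
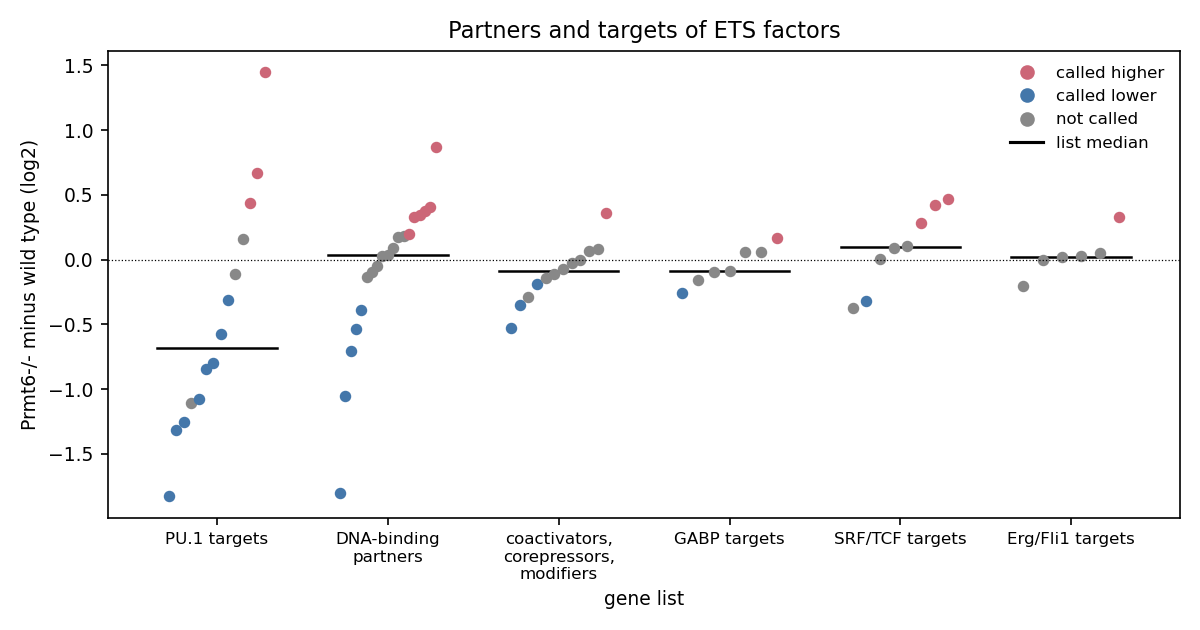
Knockout minus wild type (y axis, deposited log2 scale) of each tested gene of 6 lists (x axis), with the list median as a bar and the call as colour. PU.1 targets reach from -1.83 to 1.45 with a median of -0.68, and the other medians lie between -0.09 and 0.10.

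Promoter sequence was read beside these lists, because the letters next to GGAA set which ETS factor binds best. RefSeq promoter windows on GRCm38.p6, from 250 bases before to 50 after a start, were available for 10895 tested genes. Ets1, Fli1 and Spi1 had no window. The words searched, on both strands, were GAGGAAGT, of the kind PU.1 prefers and added after other results had been seen, and CCGGAAGT, of the kind preferred by ETS, ELK and GABP factors. Shown are the GAGGAAGT matches of PU.1 target genes and the CCGGAAGT match of an ETS gene, as 30 bases each with the match in capitals; GAGGAAGT matches of ETS genes are not shown, though the windows of Elk4 and Gabpa hold that word too, and for Gabpa the match is to the shorter CCGGAA, on the strand opposite to the gene.

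Elane: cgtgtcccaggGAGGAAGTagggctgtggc
Mpo: gtggagagagaGAGGAAGTtgcctttgtcc
Elk4: cggcccctcccCCGGAAGTgacgctcgcgc
Gabpa: tagctgagggacCCGGAAgcacttaccctc

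The Elane bases are chr10:79886216-79886245 (plus strand), with the match starting 85 bases before the gene's start, and those of Mpo are chr11:87793549-87793578 (plus strand), with the match 224 bases before it. Those of Elk4 are chr1:132007541-132007570 (plus strand), with the match 68 bases before the start, and those of Gabpa are chr16:84835020-84835049 (minus strand), with the match 92 bases before it. These distances are from RefSeq's starts; the RefSeq start of Gabpa lies inside the GENCODE gene given above, so that its match lies within that gene. Of 10 PU.1 target genes with a window, Elane and Mpo held GAGGAAGT, which 3.20% of all 32851 windows hold. Elane rose and Mpo did not pass, so neither match belongs to a target that fell. CCGGAAGT was found in 3.89% of all windows and CCGGAA in 14.9%.

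Over all genes, 399 tested genes had GAGGAAGT in a window, and 27.6% of them fell and 13.8% rose. Among all tested genes with a window 19.4% fell and 15.9% rose. In genes as abundant as the 10 ETS genes the shares that fell were 36.1% of 202 genes with the word and 28.5% of 4959 genes, and outside the chromosome 2 stretch they were 26.4% and 18.5% at all levels. The median difference of genes with the word was -0.02. Of 886 genes with CCGGAAGT 19.4% rose and 17.5% fell, with a median of 0.01. With the shorter CCGGAA, in 3097 genes, 17.2% rose and 19.6% fell, close to the shares of all genes with a window. Shares at matched abundance were not computed for these words. These are counts of letters in a window, with no test, and a match is not a bound site.

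DNA-binding partners of ETS factors moved in both directions: of 19 tested 6 rose and 5 fell, with a median of 0.04. The partner counts are to be read against 15.0% of all tested genes higher and 18.0% lower. Among genes at least as abundant as the lowest main ETS gene, these shares were 17.8% and 28.3%. Lmo2, inside the chromosome 2 stretch and under the same limit as Spi1, fell by 1.05. Irf8, with which PU.1 binds composite sites in monocytes, fell by 0.70. Runx2, of the RUNX family that frees Ets1 from inhibition, rose by 0.87, and the progenitor factor Myb rose by 0.38. Runx1 and Runx3, named after their values were seen, differed by 0.18 and 0.04 without passing. Leaving out knockout library 2 reduced the number that rose to 3. The beta subunits of GABP, picked out after their values were seen, went opposite ways, Gabpb1 falling by 0.39 and Gabpb2 rising by 0.34.

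Among 12 coactivators, corepressors and modifiers 1 rose and 3 fell, with a median of -0.09. These counts stand against 15.0% of all tested genes higher and 18.0% lower. The related acetyltransferase genes Crebbp and Ep300 differed in sign, Crebbp rising by 0.36 and Ep300 falling by 0.35. The ERK kinase gene Mapk3 fell by 0.53. Sin3a, a corepressor scaffold used by Etv6, fell by 0.19 (adjusted p = 0.0436), a call lost in 9 alternatives, among them those leaving out wild-type library 1 (0.115), 2 (0.0716) or 3 (0.0837), or knockout library 1 (0.115) or 3 (0.127).

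The other target lists were short, and their calls are to be read against 15.0% of all tested genes higher and 18.0% lower. Of 7 GABP target genes 1 rose and 1 fell, the respiratory chain genes Cox4i1, by 0.17, and Cox7c, by 0.26. Neither call held without wild-type library 2 or 3 or knockout library 1, and that of Cox7c was also lost without knockout library 2. Of 8 tested targets of SRF and ternary complex factors 3 rose and 1 fell: Egr1 rose by 0.47, Fosb by 0.42 and Junb by 0.29, and Mcl1 fell by 0.32. The Fosb call ended without wild-type library 2 or 3 or any knockout library, and the Mcl1 call without wild-type library 2 or knockout library 1 or 3. Of 6 tested Erg and Fli1 targets Gata2 alone rose, by 0.33 with overlapping groups (adjusted p = 0.0441). The Gata2 call ended without wild-type library 2 or 3 or knockout library 1 or 2. Erythroid markers were low, and Klf1 alone of 7 tested passed, rising by 0.22; that call ended without wild-type library 1 or 3 or knockout library 2.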

How the data were processed

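Trim Galore, kallisto, HOMER and the build GRCm38 are named, with no tool versions, in the submitters' processing notes. The command kept in the file header is HOMER's getDiffExpression.pl, run on a count table with 3 columns a genotype. The sample columns deposited by the authors hold log2 values normalized between libraries; the transformation is not named, and differences of low genes are understated. The authors' deposited comparison columns hold log2 fold changes with p-values, raw and adjusted, and no source used here gives their test, the annotation or the use of strand.

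The table has 30038 rows, 1 of which names no gene and was left out, and 7932 genes are listed at 0 throughout. Genes reaching 1 in 3 or more libraries entered limma 3.58.1 in R 4.3.3 (mean-variance trend, two-sided, Benjamini-Hochberg, threshold 0.05). The fit was tested on simulated data. Paralog pairs were compared with exact permutation tests in scipy 1.17.1. Gene models came from GENCODE M21 (GRCm38) and promoters from RefSeq. Each tested ETS gene was read under 13 alternatives, all of them refits except the authors' deposited comparison, which was taken as it stands. Replicate numbers were not used to pair the libraries, except in the alternative with a replicate block.

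The members and lists were chosen with earlier results of these data known. Named are all ETS genes in the table, of each list up to 4 called members by smallest p, any called member of lists with 5 or fewer calls, the markers with high levels, and genes stated as chosen later; all called PU.1 targets are named, which goes beyond that rule and was decided after seeing their values. T, B and NK cell, megakaryocyte, erythroid, endothelial, neutrophil, monocyte and progenitor markers were read.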

Additional observations from a re-analysis of the deposited data

How the results depend on the processing

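Alternatives were quantile normalization, intensity-dependent centring, 2 other filters, limma without trend, a replicate block, leaving out each library and the authors' deposited adjusted p. Ets1, Erg, Fli1, Elk3 and Spi1 kept direction and call in all 13. The number of ETS genes of the 10 that rose was 4 with any library left out and the number that fell 2 to 3. It was 1 that fell after quantile normalization and 1 after centring, and 2 fell outside the chromosome 2 stretch, a count added after the data were seen. Gabpa turned to 0.064 after quantile normalization and 0.059 after centring, and ran from -0.046 to 0.011 with a library left out, positive without knockout library 1. Elf5 ran from -0.023 to 0.015, with 0.015, 0.014 and 0.0045 without wild-type library 3, knockout library 1 or knockout library 3. Fli1 minus Erg ran from -0.18 to 0.059 with a library left out.

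Of the other ETS genes 3 to 7 passed with a library left out, the 3 without knockout library 2. Among DNA-binding partners 3 to 5 rose. Of coactivators, corepressors and modifiers 2 rose after quantile normalization and 2 after centring. Of GABP targets 0 to 1 rose and 0 to 1 fell with a library left out; 2 rose after centring, and 0 fell after quantile normalization, centring or without the filter. Of SRF targets 0 fell after quantile normalization or centring and 0 to 1 with a library left out. Of Erg and Fli1 targets 0 rose without the filter or without trend, and 0 to 1 rose and 0 to 1 fell with a library left out. The cause was not tested for any of these. In the stretch 102 to 106 of 109 genes fell in every fit.

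A replicate block in the fit left 7 of the 10 ETS genes called. Mpo passed (adjusted p = 0.00959), Sin3a did not (0.0635), and 2 SRF targets fell, against 1 without it. The correlations of deviations of same-numbered libraries were 0.095, 0.073 and 0.17, and every library correlated best with its own number, a hint from the data and not the design. Unknown depth limits what can be said of low genes.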
